A study of Mus musculus with 2 samples.

Results

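*Nnat* and *Blcap* are a pair of mouse genes that share a stretch of chromosome 2 on opposite strands, and their RNA was measured here exon by exon and intron by intron on both strands. They are 2 of the 1718 annotated genes that lie wholly inside the deposited stretches of signal, and were chosen by name and position. On the mm9 genome with GENCODE M1 annotation, *Blcap* (ENSMUSG00000067787.4) runs on the (−) strand at chr2:157382098-157397010, and *Nnat* (ENSMUSG00000067786.9) on the (+) strand at chr2:157385814-157388258, inside the first intron of *Blcap*. The signal came from MEFs, cultured fibroblasts derived from a female 13.5 dpc embryo of each of 2 reciprocal crosses between JF1, an inbred strain of the molossinus subspecies, and TgOG2 (OG2), a domesticus-derived line homozygous for a germ cell EGFP transgene. The JXO cross has a JF1 mother and an OG2 father, and the OXJ cross an OG2 mother and a JF1 father, so cells of both crosses carry 1 copy of the transgene. There was 1 library per cross, with no replicate. The difference between crosses therefore has no replicate check and no p-value, and a difference of cross cannot be told apart from one of embryo, culture or library.

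*Nnat* (neuronatin) encodes a small membrane protein of the endoplasmic reticulum, known from developing brain and from endocrine and fat cells. It is a classical imprinted gene that is transcribed from the paternal copy. *Blcap* encodes a small protein, found lost in bladder cancer, whose transcript is known to be edited by adenosine deaminases. A gene that lies in an intron of another gene on the opposite strand gives sense RNA on its own strand, while unspliced RNA of the host gives signal on the other strand of the same bases, and a strand-specific library keeps these apart.

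Values are levels, the mean read depth per base scaled to 50000000 aligned reads, where a single read adds 0.652 to a JXO base and 0.579 to an OXJ base. The intervals beside them are exact 95% Poisson limits on read pairs, for counting error alone. Over the whole series the tracks held 5837225 reads of JXO and 5785447 reads of OXJ in 618 stretches, and 421 of 424 protein-coding genes outside the imprinted list were higher on their annotated strand in either library. Of the markers fixed for fibroblasts 3 of 15 lay inside the stretches and had signal, with *Col1a2*, a fibrillar collagen, at 583 in JXO and 388 in OXJ and *Dcn*, a matrix proteoglycan, at 22.9 and 25.9. Of the neural markers 2 of 19 lay inside, *Nes*, a filament protein of progenitor cells, at 340 in JXO and 155 in OXJ, and *Sox2* at 1.27 and 1.22. The neural markers summed to 341 in JXO and 156 in OXJ and the fibroblast markers to 625 in JXO and 429 in OXJ. Both endocrine markers inside, *Ins2* and *Gh*, were at 0 in both libraries. The part of other cell types in the levels was not tested, and in such bulk RNA fewer cells of a type and less RNA per cell cannot be told apart.

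The 2 genes share DNA but no exonic base. *Nnat* exons overlapped 0 bases of *Blcap* exons, *Nnat* began 70 bases from the nearest *Blcap* exon, and it covered 31.0% of the 7892 bases of the first *Blcap* intron. GENCODE lists 11 *Nnat* transcripts and 6 *Blcap* transcripts. Nnat-001 has 3 exons and Nnat-002 skips the second, which has 81 bases, so that their coding lengths are 243 and 162 bases. That exon is shown because it tells both isoforms apart, read from mm9 at chr2:157386939-157387039 on the (+) strand with the exon in capitals and 10 intron bases on either side:
Nnat exon 2: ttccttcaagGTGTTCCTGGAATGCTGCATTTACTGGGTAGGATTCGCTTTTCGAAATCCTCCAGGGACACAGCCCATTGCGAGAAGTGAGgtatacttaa

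The other 2 splice sites of *Nnat*, where the (+) strand signal stopped and resumed, are given with the first or last 2 intron bases in capitals (exon 1 end chr2:157385987-157386006, exon 3 start chr2:157387268-157387287):
Nnat exon 1 end: gctgctgcagGTgagtatgt
Nnat exon 3 start: ctcaccgcAGgtgttcaggt
All the introns of Nnat-001, Blcap-001 and Blcap-002 start with GT and end with AG.

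The promoter windows of both genes are shown because RNA of the *Blcap* strand crossed the start of *Nnat*. Over the 250 bases before the Nnat-001 start the (−) level was 9.76 in JXO and 4.29 in OXJ, and the (+) level 0.261 and 0.477. Part of these bases is an annotated exon of Blcap-004 (chr2:157385451-157385743), which had a (−) level of 10.4 in JXO and 5.11 in OXJ. Signal of that exon and of the *Blcap* intron cannot be told apart there. Below, capitals mark the 50 bases after the annotated start and not where signal began in these libraries. The RefSeq windows span 250 bases before and 50 bases after that start (taken from a GRCm38.p6 table and matched exactly to mm9). That of *Nnat* lies at chr2:157385564-157385863 on the (+) strand and that of *Blcap* at chr2:157392048-157392347 on the (−) strand:
Nnat promoter: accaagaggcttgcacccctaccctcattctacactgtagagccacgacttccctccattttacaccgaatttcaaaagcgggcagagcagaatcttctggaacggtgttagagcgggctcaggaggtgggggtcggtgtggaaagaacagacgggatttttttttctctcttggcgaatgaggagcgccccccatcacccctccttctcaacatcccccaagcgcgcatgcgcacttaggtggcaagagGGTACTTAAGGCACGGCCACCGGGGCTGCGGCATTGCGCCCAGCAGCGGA
Blcap promoter: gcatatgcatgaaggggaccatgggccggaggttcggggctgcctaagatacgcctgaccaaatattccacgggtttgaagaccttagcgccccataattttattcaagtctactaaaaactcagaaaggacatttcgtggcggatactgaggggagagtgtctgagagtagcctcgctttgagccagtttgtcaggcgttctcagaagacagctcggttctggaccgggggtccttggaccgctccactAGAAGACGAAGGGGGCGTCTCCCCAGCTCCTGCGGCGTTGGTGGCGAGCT
Each window holds 17 CG dinucleotides, more than 68.6% of the 32851 promoters of the table, whose median was 7. The *Nnat* window holds, as its longest palindrome, GCGCATGCGC, which begins 26 bases before the RefSeq start, itself 32 bases before that of Nnat-001, and occurs in 0.971% of all promoters. Neither window holds TATAAA (13.6% of promoters do, either strand), CCAAT (37.4%) or GGGCGG (35.7%).

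**Figure D1:**
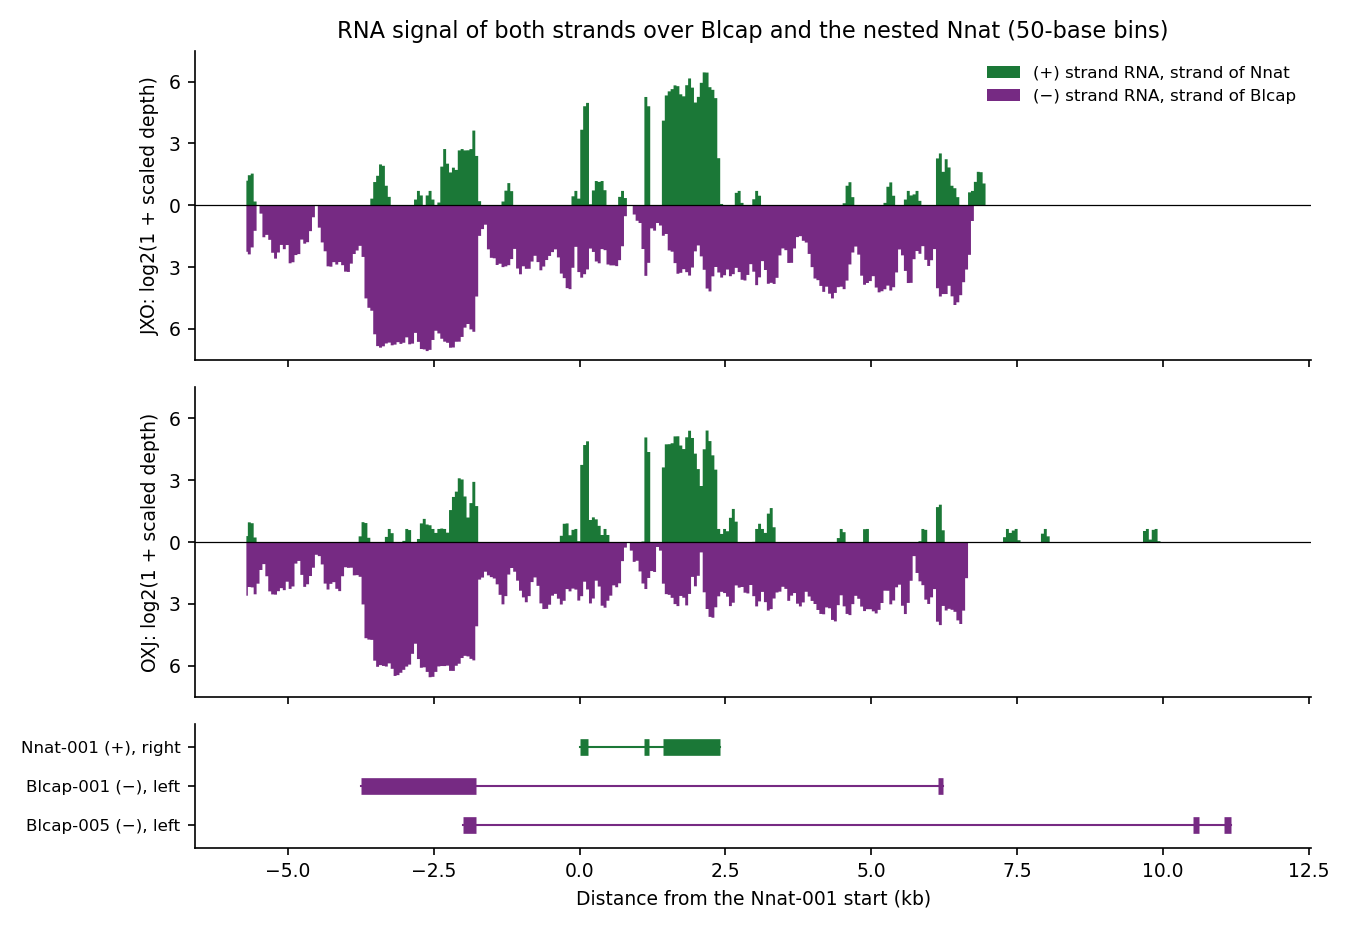
Scaled depth on a log2(1 + depth) axis in 50-base bins against the distance from the Nnat-001 start in kb, for JXO (top) and OXJ (middle), with (+) strand RNA drawn upwards and (−) strand RNA downwards, and exons of 3 transcripts below as thick bars. The high (+) blocks sit at the *Nnat* exons, with lower (+) patches at the start of the last *Blcap* exon and at the first exon of Blcap-001. The (−) signal runs through the *Blcap* intron beneath *Nnat* and past the left end of *Blcap*.

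On its own strand the signal of *Nnat* was nearly all in its exons. Over the exons of Nnat-001 the (+) level was 45.6 in JXO and 24.5 in OXJ, against 0.309 in JXO and 0.243 in OXJ over its introns. Exon 1 was at 23.3 in JXO and 22.3 in OXJ, exon 2 at 40.2 in JXO and 32.9 in OXJ, and exon 3, which ends the transcript, at 49.5 (44.6 to 54.8) in JXO and 24.1 (20.9 to 27.7) in OXJ. Exons 1 and 2 were thus at like levels in both libraries, with exon 3 the highest exon in JXO and exon 2 in OXJ. The depth stopped sharply at the annotated splice sites. In the 20 bases on the intron side of the 4 splice sites it was 0.169 to 4.01% of that in the 20 bases on the exon side in JXO and 0.0946 to 3.57% in OXJ.

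Exon 2, the alternative exon, was covered as deeply as the exon edges it is joined to. In JXO the level was 33.7 in the last 20 bases of exon 1, 38.5 in the first 20 and 43.8 in the last 20 bases of exon 2, and 39.8 in the first 20 bases of exon 3. In OXJ the same 4 edges were at 30.8, 34.9, 30.6 and 28.4. In both libraries either edge of exon 2 was above the edge it joins. These depths do not hold the junctions of single reads, so the share of transcripts without exon 2 was not analysed here.

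Well-covered (+) signal began and ended inside the annotated gene. The first base with at least 10 reads lay 14 bases past the Nnat-001 start in JXO and 12 bases in OXJ. The last such base was base 925 of exon 3 in JXO and base 921 in OXJ, 56 and 60 bases before the annotated end. The hexamer AATAAA, the common polyadenylation signal, was searched on the transcribed strand only: it was not in the last 60 bases before the annotated *Nnat* end, but ended 9 bases before the last well-covered base in JXO and 5 bases before it in OXJ. The *Blcap* end has AATAAA 15 bases before it, and ATTAAA was found in none of these windows.

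Since levels are per base, different genes of the same library can be set side by side. Over the union of its exons *Nnat* had 30.4 (27.6 to 33.5) in JXO and 16.4 (14.4 to 18.5) in OXJ on the (+) strand, which placed it 290th and 342nd from the top among 550 genes with at least 10 reads per exon base in either library. *Blcap* had 59.2 in JXO and 39.6 in OXJ on the (−) strand and was 189th and 196th. The host was thus above the nested gene in both libraries. By exon level over both libraries (Euclidean distance of log2 levels, 2 libraries, among 939 protein-coding genes), the genes nearest to *Nnat* were *Fastkd2* at 29.8 in JXO and 16.6 in OXJ, *Ctdspl2* at 32.5 and 16.2 and *Bola3* at 28.9 and 14.98. Those nearest to *Blcap* were *Mcmbp* at 58.8 in JXO and 38.4 in OXJ, *Ppfia1* at 58.0 and 41.5 and *Mogat2* at 60.4 and 36.9.

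**Figure D2:**
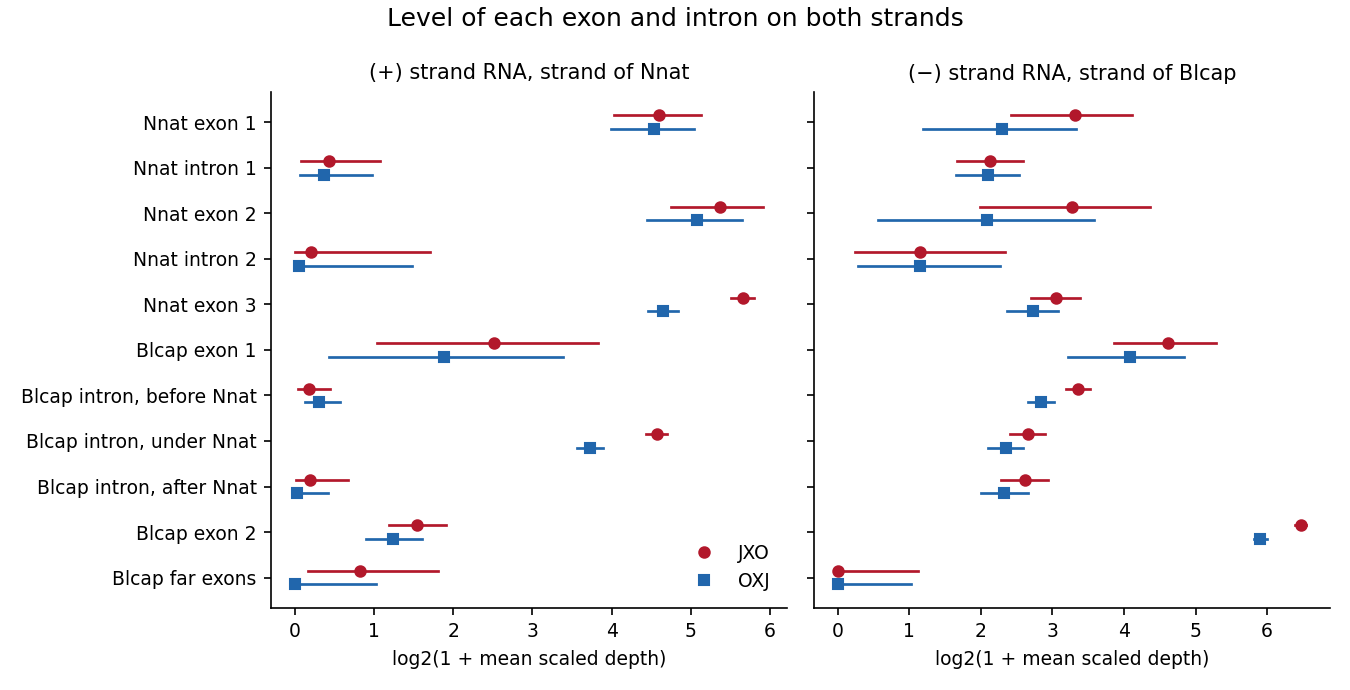
Mean scaled depth (log2(1 + level), horizontal axis) of each exon and intron on the (+) strand (left) and the (−) strand (right), JXO as circles and OXJ as squares, with 95% Poisson intervals of the counting error as lines. *Nnat* exons stand above 4 on the (+) strand in both libraries and *Nnat* introns below 1, while on the (−) strand every part of the *Blcap* intron lies between 1 and 4 and the far *Blcap* exons are at 0.

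On its own strand *Blcap* was different: its intron was well covered. The last exon, which holds the whole coding sequence of 261 bases, was at 87.7 in JXO and 58.9 in OXJ on the (−) strand, with the coding part at 92.9 in JXO and 58.95 in OXJ and the part after the stop codon at 90.0 and 60.1. The first exon of Blcap-001, which is not coding, was at 23.5 (13.5 to 38.0) in JXO and 15.9 (8.33 to 27.6) in OXJ. The intron between them, outside *Nnat*, was at 8.02 in JXO and 5.55 in OXJ, and the (+) strand of the same bases at 0.137 and 0.171. Annotated exons of Blcap-003 and Blcap-004 that lie within this intron were left out of these values. On the (−) strand that of Blcap-003 was at 8.61 in JXO and 6.21 in OXJ, and that of Blcap-004 at 10.4 and 5.11. Exon over intron came to 11.6 for *Blcap* in JXO and 11.3 in OXJ, 374th and 367th from the top of 413 protein-coding genes with introns, whose medians were 38.8 and 32.6. This ratio took all introns of the gene, also those under *Nnat* and those upstream of the near start. With introns only up to the near start, a choice made after seeing the data, it was 8.22 in JXO and 7.78 in OXJ. For *Nnat* the ratio was 140 in JXO and 111 in OXJ, but its 616 intron bases outside any annotated exon held 0.555 read pairs in JXO and 0.255 in OXJ. At the upper limit of that intron level, 1.01 in JXO and 0.791 in OXJ, the ratio was 30.1 in JXO and 20.7 in OXJ. Counting error therefore leaves the place of *Nnat* in this order unsettled, though both limits lie above the ratio of *Blcap*.

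The annotated first exons of *Blcap* end at different bases. At the end of the first exon of Blcap-001 the (−) level was 40.1 in the last 20 exon bases and 3.65 in the first 20 intron bases in JXO, and 32.1 against 4.46 in OXJ. The first exon of Blcap-002 is annotated to reach further into the intron, and at its end the levels were 3.91 inside and 2.35 outside in JXO, and 4.92 against 3.42 in OXJ. The step in depth was therefore at the Blcap-001 site in both libraries. At the start of the last exon the first 20 intron bases outside it had 7.28% of the inside level in JXO and 5.42% in OXJ.

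The far exons of *Blcap*, used by Blcap-006 and in part by Blcap-005, had no (−) strand read in either library. Over their 410 bases a count of 0 allows a level of up to 0.954 in JXO and 0.847 in OXJ (3 read pairs). Over the 121 bases of the outermost, the first exon of both transcripts, it allows up to 3.23 in JXO and 2.87 in OXJ. The (−) signal did extend beyond the near annotated start, and the whole of the 400 bases before it was covered, at a level of 17.8 (13.4 to 23.2) in JXO and 9.17 (6.26 to 12.97) in OXJ, below the level of the first exon with overlapping intervals. It stopped 473 bases before the near start in JXO and 400 bases in OXJ, and from 500 bases on to the far start no (−) read was found over 4413 bases, which allows up to 0.0886 in JXO and 0.0787 in OXJ. The upstream signal thus joined the near start and did not reach the far exons in either library.

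Beneath *Nnat* the (−) strand signal went on over the bases of the *Blcap* intron. An annotated (−) strand miRNA gene, *AL672259.1*, lies at bases 820 to 906 of *Nnat* exon 3, with a (−) level of 8.40 in JXO and 10.4 in OXJ. RNA of that gene cannot be told apart here from RNA of the *Blcap* intron. In transcription order of *Blcap*, the intron had a (−) level of 9.24 (8.12 to 10.5) in JXO and 6.19 (5.33 to 7.14) in OXJ before *Nnat*, 5.32 (4.33 to 6.47) in JXO and 4.08 (3.27 to 5.04) in OXJ over *Nnat*, and 5.12 (3.88 to 6.63) in JXO and 4.03 (2.996 to 5.30) in OXJ after it. The 2 later parts had like levels and the first part was higher, with counting intervals that did not overlap those of the other parts in either library. In 500-base bins the (−) level spanned 2.05 to 15.7 in JXO, against 1.43 to 9.18 in OXJ, and both libraries had their highest bin at bases 1501 to 2000 and their lowest at bases 5001 to 5500 of the intron. Along 78 bins of 100 bases Pearson's r between the libraries was 0.64, a description of bins that share base composition and mappability.

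Over *Nnat* exons the (−) strand accounted for 16.6% (13.5 to 20.1, Clopper-Pearson) of the signal in JXO and 22.3% (17.9 to 27.1) in OXJ. Among 305 protein-coding genes with no annotated gene on the other strand, the median share on the other strand was 2.73% in JXO and 3.53% in OXJ, and only 3 genes in JXO and 1 gene in OXJ were above *Nnat*. In *Nnat* introns outside any annotated exon the order was turned round. There 96.4% (68.1 to 99.8) of the signal in JXO and 97.9% (73.5 to 100) in OXJ lay on the (−) strand. Over the introns of Nnat-001, part of which is exon in other transcripts, it was 90.5% in JXO and 92.1% in OXJ. The (−) level over the exons was 6.05 in JXO and 4.69 in OXJ, between the level of the intron before *Nnat* and that after it. *Blcap* exons had 2.54% of their signal on the (+) strand in JXO and 2.50% in OXJ, near the median gene. That share was larger in the coding part, at 4.28% in JXO and 8.16% in OXJ, than after the stop codon, at 0.930% and 0.674%. It was larger still in the first exon of Blcap-001, at 16.7% (3.38 to 39.6) in JXO and 14.5% (1.78 to 42.8) in OXJ, on few read pairs.

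The (−) signal also had gaps shared by both libraries. The longest run without a (−) read in the *Blcap* intron began at the same base in both, 800 bases past the *Nnat* start, and was 158 bases long in JXO and 107 bases in OXJ. Its shared part, chr2:157386614-157386720 of mm9, lies in intron 1 of *Nnat* and is shown because of its base composition, with 60.7% A on the (+) strand and a run of 19 A:
Stretch without (−) reads: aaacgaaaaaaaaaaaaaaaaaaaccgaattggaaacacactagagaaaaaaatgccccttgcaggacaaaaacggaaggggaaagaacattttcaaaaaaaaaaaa
The part of the sequence in this gap was not tested.

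**Figure D3:**
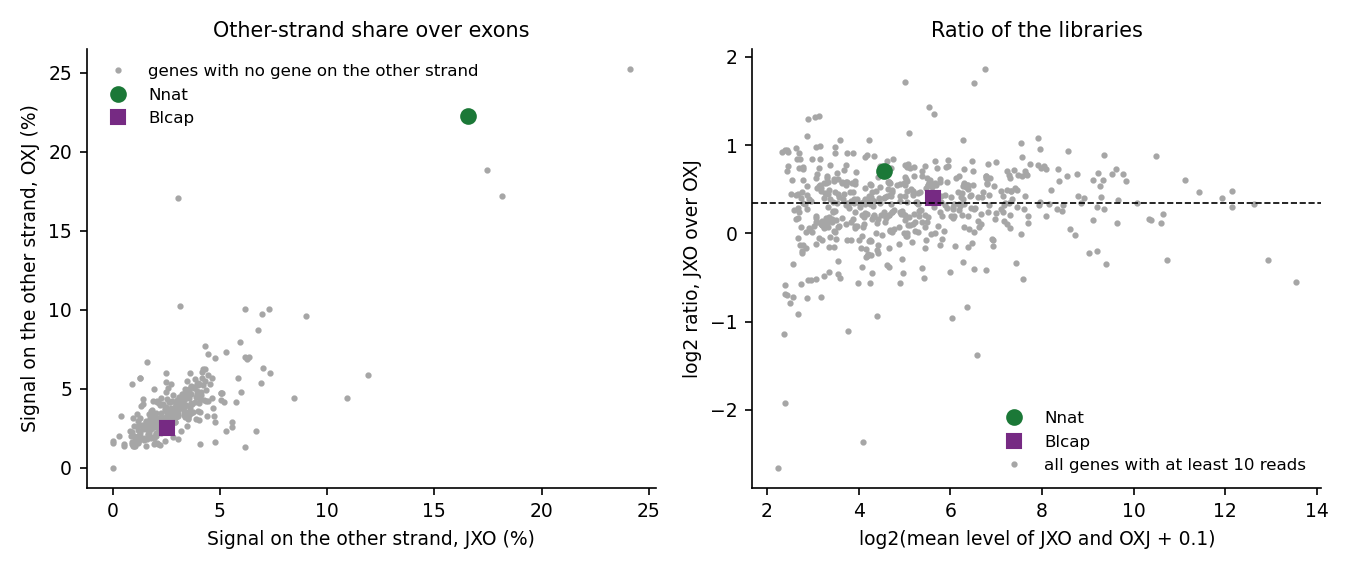
Left, percent of exon signal on the other strand in JXO (horizontal) and OXJ (vertical) for genes with no gene on the other strand (grey), *Nnat* and *Blcap*. Right, log2 ratio of JXO over OXJ against the log2 mean level for 550 genes, with the median gene (0.34) as a dashed line. *Nnat* (16.6% and 22.3%) is among the highest on the left and *Blcap* within the bulk, and on the right *Blcap* lies at the median and *Nnat* above it.

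Other imprinted genes that lie inside a host gene gave a comparison at lower levels. *Nap1l5*, a retrogene in an intron of *Herc3*, was at 3.34 in JXO and 2.62 in OXJ. Its share on the strand of the host was 26.8% in JXO and 17.0% in OXJ. The level on that strand was 1.22 in JXO and 0.538 in OXJ, and the introns of *Herc3* were at 1.05 and 0.887. *Zrsr1*, a retrogene in *Commd1*, was at 4.76 in JXO and 3.88 in OXJ, with 9.43% and 11.8% on the other strand. As for *Nnat*, the level on the host's strand over these genes was of the order of that in the host's introns (0.345 in JXO and 0.304 in OXJ for *Commd1*, against 0.496 and 0.519 over *Zrsr1*). *Mcts2* at 27.9 in JXO and 18.6 in OXJ lies on the same strand as its host *H13* at 90.3 and 59.8, where strands cannot separate them. The hosts *Herc3*, *Commd1* and *H13* had higher exon levels than the gene inside them in both libraries. A further listed host, *Trappc9*, was at 1.91 in JXO and 2.21 in OXJ. The gene inside it, *Peg13*, had no entry in the annotation used, so that pair was not compared. *Inpp5f*, listed without a separate host, was at 17.3 in JXO and 8.86 in OXJ.

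Between the crosses *Nnat* was higher in JXO by more than the median gene, and *Blcap* by about as much. With both libraries scaled to equal totals, the log2 ratio of JXO over OXJ was 0.71 (counting interval 0.48 to 0.94) for *Nnat* and 0.40 (0.28 to 0.51) for *Blcap*, while the median of the 550 genes was 0.34. Relative to that median *Nnat* was at 0.37 and *Blcap* at 0.057, 75th and 243rd from the top. Neither passed 2-fold, which 3.82% of the 550 genes did, 15 higher (2.73%) and 6 lower (1.09%) in JXO. That split depended on the scaling, with 42 higher and 4 lower for the values as deposited, 5 and 16 with the median gene set equal and 7 and 15 without the 2 deepest 10 kb bins. The (−) signal over *Nnat* exons had a log2 ratio of 0.18 (−0.28 to 0.66), and that in the *Blcap* intron of 0.33 (0.12 to 0.54).

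The higher level of *Nnat* in JXO was measured in exon 3 and not in exons 1 and 2. Exon 1 had a log2 ratio of −0.12 (−0.93 to 0.69), exon 2 of 0.11 (−0.77 to 0.99) and exon 3 of 0.85 (0.61 to 1.11). Relative to the median gene, exons 1 and 2 together were at −0.35 and exon 3 at 0.51. The intervals of exons 1 and 2 overlap that of exon 3, since they rest on 26.9 and 25 read pairs in JXO and 29.03 and 22.98 in OXJ, against 373 in JXO and 204 in OXJ for exon 3. In *Blcap* the first exon was at 0.41 (−0.71 to 1.35) and the last at 0.39 (0.27 to 0.51), and the interval of the first is too wide to show a difference of that size.

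**Figure D4:**
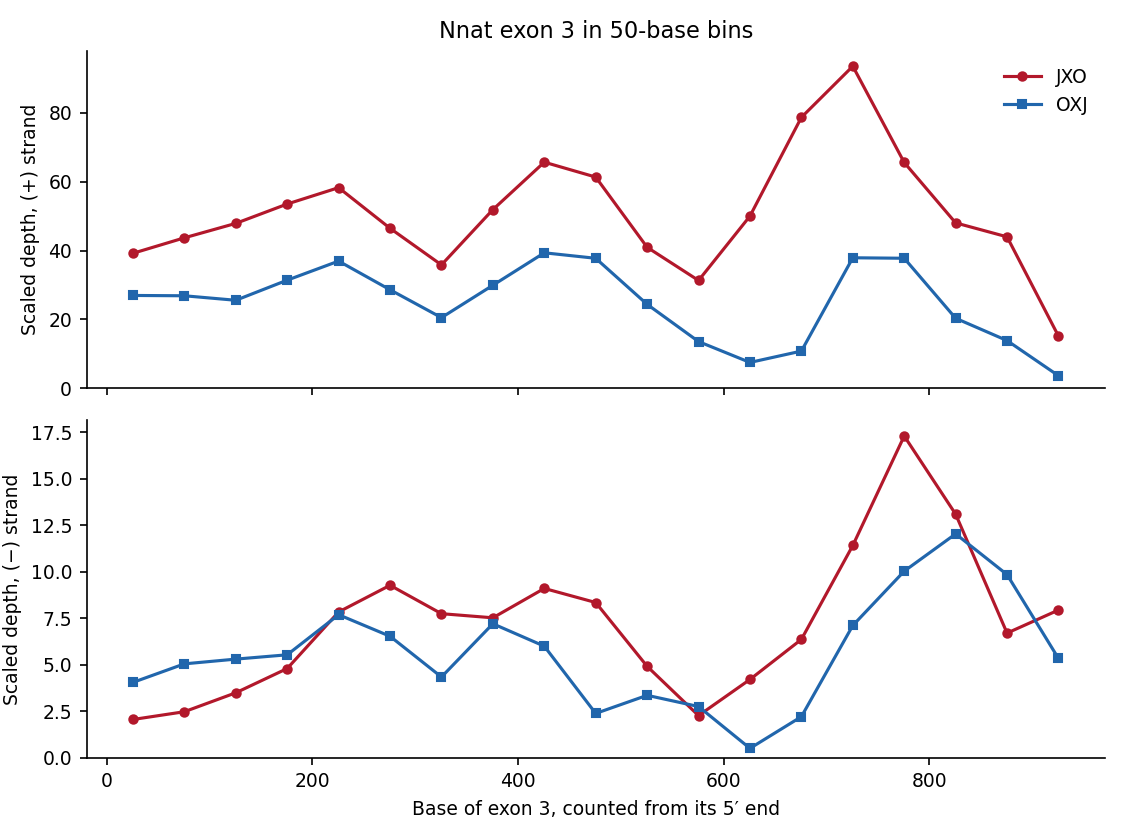
Scaled depth in 50-base bins along exon 3 of *Nnat* (horizontal axis, base counted from the 5′ end of the exon), on the (+) strand (top) and the (−) strand (bottom), JXO as circles and OXJ as squares. JXO is above OXJ in all 19 bins on the (+) strand, and the curves part most at bases 601 to 700, where OXJ falls to 7.48 and 10.8 while JXO is at 50.03 and 78.7.

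Within exon 3 the libraries parted most over a narrow stretch, and again near the 3′ end. In 50-base bins all 19 were higher in JXO after scaling to equal totals, the median log2 ratio was 0.61 and 7 bins passed 2-fold. At this scaling 81.8% of the 550 genes were also higher in JXO. For comparison, 21905 exon bins of protein-coding genes had at least 20 reads per base in either library, a rule chosen after seeing the data. Their median log2 ratio was 0.37, and 11.0% were at least 2-fold higher in JXO and 0.749% at least 4-fold. Bases 601 to 650 were at 50.03 in JXO and 7.48 in OXJ, and bases 651 to 700 at 78.7 in JXO and 10.8 in OXJ, which are 5.83-fold and 6.39-fold at equal totals. The bins on either side of these were 2.03-fold and 2.17-fold higher in JXO. Near the 3′ end, bases 801 to 850 were 2.08-fold, bases 851 to 900 2.79-fold and bases 901 to 950 3.62-fold higher in JXO. The first bin of the exon had the lowest ratio of the 19, 0.36, near that of the median gene, and the second was at 0.52. The dip in OXJ at bases 601 to 700 was deepest at base 655, where 4 reads of OXJ and 103 of JXO covered the (+) strand. OXJ rose again further on, and at bases 701 to 750 it was at 37.9, with JXO at its peak of 93.6.

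The stretch around base 655 was low in OXJ on the other strand too. At base 655 the (−) strand had 1 read in OXJ and 7 in JXO, and bases 601 to 650 were at 0.509 in OXJ, its lowest bin of the exon, with JXO at 4.21. The (−) level over the whole of exon 3 was 7.27 in JXO and 5.62 in OXJ. The representative position that the study printed for the alleles of each gene lies within the same exon, at base 499 for *Nnat* and base 530 for *Blcap*. These are 156 and 125 bases before the lowest base. For *Nnat* the study had more than 1 informative position and also used sequenom allelotyping, and for *Blcap* only that 1 position. In the case of *Blcap* that position is in its intron, under *Nnat*, in a bin where the (−) level was 4.91 in JXO and 3.36 in OXJ and the (+) level 40.96 and 24.4. The father, whose copy of *Nnat* is the one known to be transcribed, was OG2 in JXO and JF1 in OXJ. The tracks mark no allele, and the part of sequence differences between the strains in this dip was not tested.

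The last exon of *Blcap* showed no stretch of that kind. Of 19 bins of 100 bases 16 were higher in JXO, as were 81.8% of the 550 genes at equal totals. In this exon 1 bin passed 2-fold (log2 1.10 at bases 1001 to 1100) and the lowest was at −0.13. The depth profiles of the libraries had a Pearson r of 0.77 over 78 bins of 25 bases of *Blcap* exon 2 and 0.56 over 48 bins of the *Nnat* exons, again a description.

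**Figure D5:**
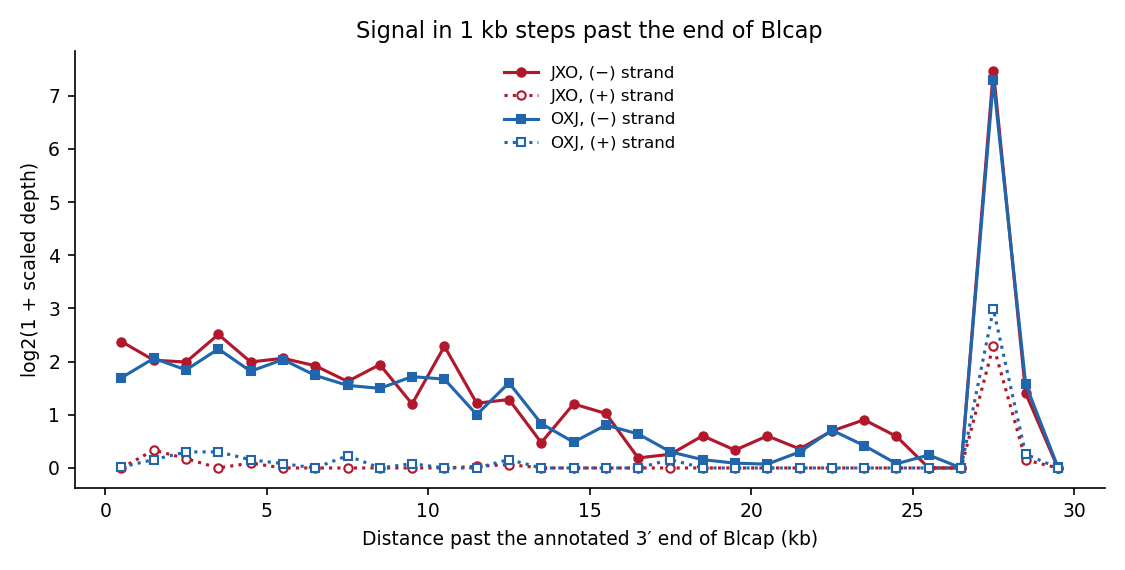
Scaled depth (log2(1 + level)) in 1 kb steps past the annotated 3′ end of *Blcap*, (−) strand as filled symbols and (+) strand as open symbols, JXO as circles and OXJ as squares. The (−) signal lies near 2 over the first kilobases and declines in both libraries before the narrow peak over the pseudogene *Gm14287*, and the (+) signal stays below 0.5 up to that peak.

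The (−) signal ran on past the 3′ end of *Blcap* and was lower farther from it. In steps of 5 kb it was 3.58 in JXO and 2.85 in OXJ, then 2.44 and 2.30, then 1.67 and 1.28, then 0.430 and 0.344, and then 0.561 and 0.263. The level was lower at each step up to the fourth in both libraries, and the last step was above the one before it in JXO and below it in OXJ, with overlapping intervals in either library. Over the first 5 kb 97.5% of the signal in JXO and 95.3% in OXJ was on the (−) strand. The first 100 bases without a (−) read began 731 bases past the end in JXO and 12558 bases in OXJ, and the first 500 such bases 12970 and 17217 bases past it. A processed transcript, *Gm14286*, is annotated on the same strand 10892 bases past the end, with 1.64 in JXO and 2.18 in OXJ, so RNA that starts there cannot be told apart from RNA that runs on from *Blcap*. Past *Nnat* the first 100 bases without a (+) read began at its annotated end in JXO and 271 bases past it in OXJ, and the first 500 such bases 670 and 924 bases past it. The 1 kb past its end was at 0.130 in JXO and 0.637 in OXJ.

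Of 12 neighbours on chromosome 2, 7 lay inside the stretches and 6 had at least 10 reads, with a median log2 ratio of 0.23 beside 0.34 for all genes. None of the 6 passed 2-fold, which says little where 3.82% of all genes did. *Src*, a tyrosine kinase, was at 77.3 in JXO and 56.1 in OXJ and *Ctnnbl1*, a splicing-related protein, at 63.3 and 37.5. On the other side of *Blcap* the next annotated gene, *2410019O14Rik*, was at 0.207 in JXO and 0 in OXJ. Of 30 paternally expressed imprinted genes, the group to which *Nnat* belongs, 22 lay inside and 13 had at least 10 reads, with a median log2 ratio of 0.48. The 2 of the 13 that were at least 2-fold higher in JXO, beside 2.73% of all genes, were *Igf2as* at 1.10 and *Slc38a4* at 1.08, and none was 2-fold lower (1.09% of all genes). With the median gene set equal they were at 0.77 and 0.74, under 2-fold. The highest levels were those of *Igf2*, a fetal growth factor, at 765 in JXO and 464 in OXJ and *Slc38a4*, an amino acid transporter, at 339 and 141. The lists of the calcium pump of the endoplasmic reticulum and its small regulators, on which neuronatin is thought to act, and of adipocyte genes had 0 members inside the deposited stretches, so neither was measured.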

How the data were processed

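Ribosomal RNA was depleted from the RNA of 1 JXO and 1 OXJ MEF line, and libraries were made strand-specific with dUTP and sequenced from both ends. The submitters' processing notes name CASAVA 1.9 and TopHat 1.2.0 with mm9. The authors deposited, for either direction of either library, log2 of 1 plus the read depth at each base scaled to 50000000 aligned reads. Reads that map to up to 10 loci were kept, so repeated sequence and pseudogenes can share reads.

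The log2 values were turned back to depth and divided by the lowest value of each library, which gave whole reads (largest relative deviation 3.61e-14). Tracks named forward hold (−) strand RNA. Covered bases joined over gaps of up to 50 kb gave the stretches, and a 0 outside them is no measurement. Exons were those of GENCODE M1, gene introns leave out any exon of the same strand, and RefSeq promoters were matched to mm9. A read pair was counted as 200 bases for intervals, and PCR copies are not independent molecules. Ratios used equal deposited totals and a pseudocount of 0.1. Called means at least 2-fold among genes with at least 10 reads per exon base. No p-values were computed, as either cross has 1 library. Python 3.11.15 was used with pandas 2.3.3, numpy 2.4.6, matplotlib 3.10.9 and scipy 1.17.1, and region sums were tested on simulated data.

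The genes and lists were chosen with earlier results of these data known. Genes named are *Nnat*, *Blcap*, the nested genes and hosts, the adjacent genes, the 3 nearest in level of each, the 2 highest of each list and those called. *Ins2*, *Gh*, *Gm14286*, *Gm14287* and *AL672259.1* were chosen with their values in view. The alternatives varied the scale (mean of log2 values, share of bases covered), the exon set, the scaling, pseudocount and floor.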

Additional observations from a re-analysis of the deposited data

How the results depend on the processing

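No paired analysis was possible because there was 1 library per cross and no result came from a test. The choice of measure and of exons turned some values round. The (+) share over *Nnat* exons, 83.4% in JXO and 77.7% in OXJ, was 70.5% and 64.5% with the mean of log2 values and 44.7% and 44.1% by the share of bases covered, which ignores depth and puts the larger share on (−), and 82.3% in OXJ over the longest coding transcript. The (−) share over *Blcap* exons, 97.5% in both, was 62.9% in JXO and 62.8% in OXJ by bases covered and 98.4% in JXO without the 100 bases next to exon ends. Exon over intron by bases covered was 4.40 in JXO and 9.38 in OXJ for *Nnat* and 1.35 in JXO and 1.36 in OXJ for *Blcap*. For *Blcap* it was 9.22 in OXJ with log2 means, and 8.22 in JXO and 7.78 in OXJ with introns only up to the near start, an alternative chosen after seeing the data. The log2 ratio of JXO over OXJ was 0.37 for *Nnat* and 0.057 for *Blcap* with the median gene set equal, 0.40 and 0.090 without the 2 deepest 10 kb bins, 0.58 for *Blcap* as deposited, and −0.015 for *Nnat* over exons 1 and 2 only, at the other side of 0, chosen after seeing the data. In the other 38 cases these values moved by less than their counting interval. That interval is wide for exon over intron of *Nnat*, 140 in JXO and 111 in OXJ. The ratio was 59.9 in JXO and 52.5 in OXJ with log2 means, and 305 and 165 with a floor of 2 reads. Depth limits exons 1 and 2 of *Nnat*, whose intervals overlap that of exon 3, as it does the *Nnat* introns and the first *Blcap* exon.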
